A study of Mus musculus with 4 samples.

Results

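Transcripts of 9 genes of bone morphogenetic protein (BMP) signalling were followed in stromal cells of the mouse prostate, 5 that encode ligands (Bmp2, Bmp4, Bmp5, Bmp7 and Gdf10) and 4 that encode secreted antagonists (Grem1, Chrdl1, Bmper and Nbl1). They were chosen by symbol from the 25564 genes to which transcripts could be assigned, and 7 of the 9 were abundant enough to enter the comparison of 11212 genes. The cells came from adult C57BL/6 mice and were sorted as Sca-1 positive and as lacking CD24, CD49f and lineage markers. Sca-1 is carried by many fibroblasts and by mesenchymal progenitors, whereas CD24 and CD49f mark epithelium. No transgene, deletion or treatment is named, and both groups were sorted alike. One group came from the proximal ducts, next to the urethra, and the other from the distal ducts, at the tips of the lobes, with 2 libraries each, numbered 2 and 3 in both groups. Whether a library stands for 1 animal or a pool is not in the labels, so p-values cover the variation among these 4 libraries only, and it may be technical. The stated aim was to find signalling of this stroma.

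BMPs are dimeric ligands of the transforming growth factor beta superfamily that assemble type I and type II receptor kinases, which phosphorylate Smad1, Smad5 and Smad9 and, with Smad4, switch on targets such as the Id genes. Secreted antagonists bind the ligands in the extracellular space and keep them from their receptors, so the activity at a cell depends on ligand and antagonist together. In the developing prostate, mesenchymal Bmp4 and Bmp7 are known to restrain the budding and branching of ducts.

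The libraries had the profile of fibroblasts. All 11 fibroblast markers were tested, and their summed level was 5318 to 6642 FPKM (fragments adjusted for the length of the transcript and the size of the library, so that genes of different length can be compared). Among the 11 is Ly6a, at 687 to 1016 FPKM, the gene of Sca-1, on which the cells were sorted. The leukocyte markers summed to 2.06 to 3.47 FPKM over 7 genes, with Cd3e listed at 0 in all libraries. The 7 endothelial markers summed to 8.17 to 9.46 FPKM, and the 7 smooth muscle markers to 135 to 313 FPKM. The 11 epithelial markers summed to 50.3 FPKM in distal 2, 120 FPKM in distal 3, 67.7 FPKM in proximal 2 and 495 FPKM in proximal 3, with none of the 11 at 0 in any library, although the sort took cells without CD24. Absolute depth is unknown, since the files give no counts. The deposited coverage per FPKM, which scales with depth, had medians of 5.22 to 6.34, so the libraries were of similar depth.

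The 9 genes fell into 3 ranges of level. Nbl1 was far above the rest, with a mean of 1258 FPKM over the 4 libraries and 99.8% of tested genes below it. Gdf10 (155 FPKM), Bmp2 (136 FPKM), Bmp4 (69.1 FPKM) and Bmp7 (47.3 FPKM) followed, all above at least 87.9% of tested genes. The antagonists Chrdl1 (5.31 FPKM) and Bmper (3.65 FPKM) lay in the lower part of the tested genes, with 35.8% and 26.1% of them below. Bmp5 and Grem1 stayed under 1 FPKM in every library. Neighbours in this order were often not separated: the ranges of Gdf10 and Bmp2 over the libraries overlapped, as did those of Bmp2 and Bmp4, of Bmp4 and Bmp7 and of Chrdl1 and Bmper, whereas no library of Nbl1 came near the ligands. The deposited bounds, which hold no spread between libraries, reached 0.697% to 6.14% to either side of the value for the 5 abundant genes and 8.44% to 16.4% for the transcripts of Chrdl1 and Bmper.

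**Figure D1:**
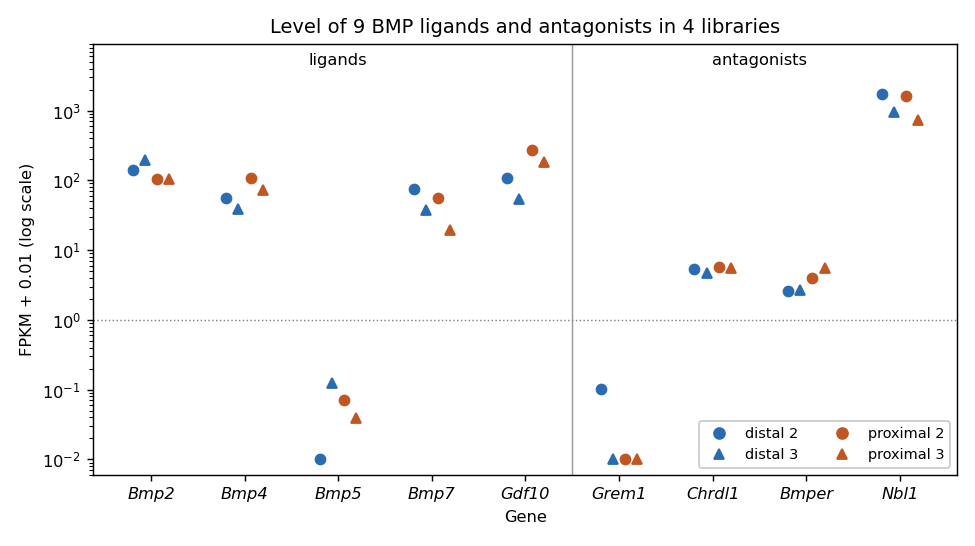
Level of each gene in the 4 libraries, as FPKM + 0.01 on a log axis, with distal libraries in blue, proximal libraries in orange, circles for number 2 and triangles for number 3. Nbl1 stands highest at 733 to 1751 FPKM, 4 ligands lie between 19.7 and 275 FPKM, and Bmp5 and Grem1 lie below the dotted line at 1 FPKM.

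The sequence upstream of the start site was available for 6 of the 9 genes (Bmp4, Bmp5, Gdf10, Grem1, Bmper and Nbl1; RefSeq, GRCm38.p6, the assembly of mm10). The 250 bases before the start are shown 5′ to 3′ for the 2 ligands with the largest proximal excess, Gdf10 and Bmp4, for the most abundant antagonist, Nbl1, and for Grem1, whose transcript was at or near 0. Capitals mark the GC box GGGCGG, a binding sequence of Sp factors, and GGCGCC, the GC-rich element known from BMP-responsive enhancers, each searched on both strands, so that GGGCGG also appears as CCGCCC. Matches may overlap, as the last pair of GC boxes before Gdf10 does.
Gdf10 (chr14:33923337-33923586, plus strand): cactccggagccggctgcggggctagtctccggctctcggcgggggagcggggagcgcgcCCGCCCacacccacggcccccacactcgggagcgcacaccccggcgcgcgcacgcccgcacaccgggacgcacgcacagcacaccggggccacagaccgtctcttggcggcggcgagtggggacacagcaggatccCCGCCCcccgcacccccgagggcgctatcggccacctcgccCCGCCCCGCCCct
Bmp4 (chr14:46390670-46390919, minus strand): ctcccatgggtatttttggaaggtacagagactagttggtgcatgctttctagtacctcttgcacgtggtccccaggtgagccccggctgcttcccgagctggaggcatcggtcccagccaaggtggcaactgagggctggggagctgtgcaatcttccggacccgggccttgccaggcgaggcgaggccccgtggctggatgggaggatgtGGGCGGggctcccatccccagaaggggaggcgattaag
Nbl1 (chr4:139092971-139093220, minus strand): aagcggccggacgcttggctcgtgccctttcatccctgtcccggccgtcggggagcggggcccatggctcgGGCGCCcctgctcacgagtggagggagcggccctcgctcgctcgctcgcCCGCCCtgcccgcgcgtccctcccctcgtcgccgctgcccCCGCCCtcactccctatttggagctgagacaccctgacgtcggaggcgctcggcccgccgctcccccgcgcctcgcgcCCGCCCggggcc
Grem1 (chr2:113758649-113758898, minus strand): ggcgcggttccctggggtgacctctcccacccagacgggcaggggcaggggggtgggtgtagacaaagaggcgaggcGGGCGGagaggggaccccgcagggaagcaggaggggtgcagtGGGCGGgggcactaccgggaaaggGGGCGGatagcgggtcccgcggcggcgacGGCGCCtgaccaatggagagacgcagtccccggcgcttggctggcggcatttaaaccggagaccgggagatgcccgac
These windows were rich in G and C, at 78.8% for Gdf10, 77.6% for Nbl1, 72.0% for Grem1 and 63.2% for Bmp4, against a median of 52.4% over 32851 promoter windows of the same length, while that of Bmp5 had 42.8%. GGGCGG was found 4 times before Gdf10, 3 times before Nbl1, 3 times before Grem1 and 1 time before Bmp4, and 32.7% of all windows held it. GGCGCC was found 1 time before Nbl1, beginning 179 bases upstream of the start, and 1 time before Grem1, beginning 78 bases upstream, and 9.59% of all windows held it. The windows of the ligands Gdf10, Bmp4 and Bmp5 and of the antagonist Bmper did not hold GGCGCC. The TATA box TATAAA was in none of the 6 windows and in 12.4% of all. The start used for Bmp4 lies 70 bases from that of its expressed deposited transcript, and those of Gdf10 and Nbl1 coincide with theirs. The start of Grem1 coincides with that of its longer deposited transcript, listed at 0 in the 4 libraries, and lies 8494 bases from that of the short transcript that carried its only value.

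In the comparison of proximal with distal stroma, 0 of the 7 tested members passed, and 0% of all 11212 tested genes did so (limma on log2(FPKM + 1), Benjamini-Hochberg threshold 0.05). At an unadjusted p under 0.05 there was 1 member, Gdf10, and 354 of all genes (3.16%). The fitted difference was above 0 for 4 of the 7 tested members, against 60.3% of all genes. For those 4 (Gdf10, Bmp4, Bmper and Chrdl1) the proximal libraries both exceeded the distal ones, against 12.9% of tested genes. Both lay below for 1 member (Bmp2), against 8.67%. Members and lists were chosen with earlier results of these data known, so no share set against that of all genes is a test. The adjusted p was 0.99991 (limma) for each tested member, and the smallest over all genes was 0.196. With 2 libraries against 2, an exact permutation test cannot give a two-sided p below 0.333. The limma fit had region as its only term. When the library number was added as a block, the counts of genes and of members passing changed, as given in the last section.

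Gdf10 (also called BMP3b) encodes a divergent member of the family that signals less like the classical BMPs. It lies on chromosome 14 at 33923587 to 33937983 (plus strand, mm10, protein coding). Its level was 107 FPKM in distal 2, 53.7 FPKM in distal 3, 275 FPKM in proximal 2 and 186 FPKM in proximal 3. Both proximal libraries were above both distal ones. Proximal stroma averaged 230.1 ± 62.9 FPKM, 2.86 times the distal mean of 80.5 ± 37.9 FPKM (SD, n = 2 each). The log2 difference was 1.56 ± 0.45 (SE), with a 95% interval of 0.41 to 2.71 and an unadjusted p of 0.0171 (limma), the largest difference among the members. Number 2 alone gave 1.35 and number 3 alone 1.77.

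Bmp4 encodes a classical BMP of mesenchyme. It lies on chromosome 14 at 46383520 to 46390669 (minus strand), where the antisense gene Gm15222 and the gene Gm15217 overlap it on the plus strand. The libraries did not mark strand, so reads of overlapping genes cannot be told apart. Its level was 55.5 FPKM in distal 2, 38.4 FPKM in distal 3, 110 FPKM in proximal 2 and 72.9 FPKM in proximal 3, without overlap of the regions. The log2 difference was 0.94 ± 0.38 (SE), with a 95% interval of -0.02 to 1.90 (unadjusted p = 0.0542, limma). The differences within number 2 and within number 3 were close to each other, at 0.97 and 0.91. All of this level came from 1 of the 2 listed transcripts, and the other was listed at 0 in the 4 libraries.

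Bmp2, the closest relative of Bmp4, had the opposite order. It lies on chromosome 2 at 133552159 to 133562885 (plus strand). Its level was 140 and 194 FPKM in distal 2 and distal 3 and 105.1 and 104.99 FPKM in proximal 2 and proximal 3. The distal libraries stood above the proximal ones, and the proximal pair was nearly equal. Distal stroma averaged 167 ± 38.0 FPKM and proximal stroma 105.05 ± 0.083 FPKM (SD, n = 2 each), 1.59 times as high in distal. The log2 difference of -0.64 ± 0.32 (SE) had a 95% interval of -1.46 to 0.17 (unadjusted p = 0.0998, limma).

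Bmp7, which encodes a ligand of the Bmp5 subgroup, lies on chromosome 2 at 172868012 to 172940321 (minus strand). Its level was 75.9 FPKM in distal 2, 38.0 FPKM in distal 3, 55.5 FPKM in proximal 2 and 19.7 FPKM in proximal 3. The regions overlapped, and both libraries numbered 2 lay above both numbered 3. The log2 difference between regions was -0.68 ± 0.62 (SE; unadjusted p = 0.319, limma), while number 2 exceeded number 3 by a log2 difference of 0.98 in distal and 1.45 in proximal stroma. For the difference between regions, number 2 alone gave -0.45 and number 3 alone -0.92. Without proximal replicate 3, where region and number partly coincide, it was 0.04.

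Bmp5 was barely detected, at 0.113 FPKM in distal 3, 0.0614 FPKM in proximal 2 and 0.0296 FPKM in proximal 3, and it was listed at 0 in distal 2. Its deposited coverage did not exceed 0.556. It was not tested.

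The ligand transcripts were also compared by sum and by share. Summed over the 5 ligands, the level was 378 and 324 FPKM in distal 2 and distal 3 and 545 and 383 FPKM in proximal 2 and proximal 3. Gdf10 made up 28.3% and 16.6% of that sum in the distal libraries and 50.4% and 48.4% in the proximal ones. Bmp2 made up 36.9% and 59.8% in distal and 19.3% and 27.4% in proximal libraries. Thus Bmp2 was the most abundant ligand in both distal libraries and Gdf10 in both proximal ones. Without Gdf10 the ligand sum was 271, 270.1 and 270.2 FPKM in distal 2, distal 3 and proximal 2 and 198 FPKM in proximal 3. The ratio of Bmp2 to Bmp4 was 2.52 and 5.04 in distal 2 and distal 3 and 0.960 and 1.44 in proximal 2 and proximal 3, again without overlap. These ratios combine members chosen with their values known and carry no test.

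**Figure D2:**
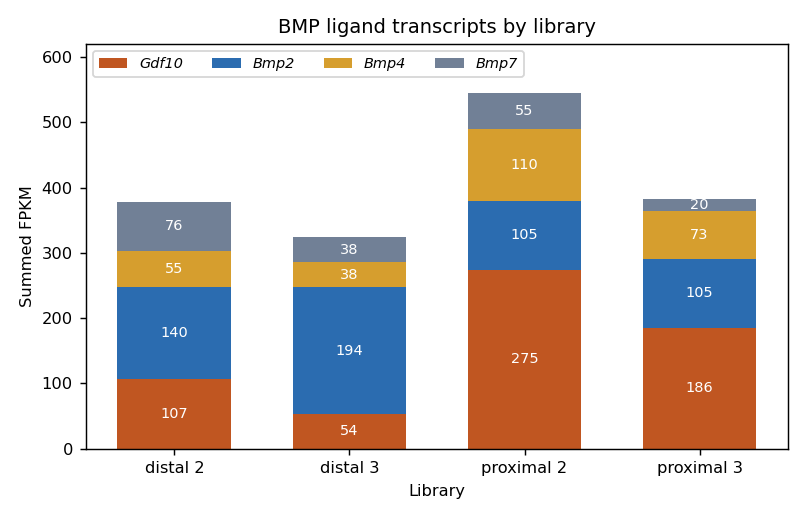
Stacked bars give the FPKM of Gdf10, Bmp2, Bmp4 and Bmp7 in each library, with the rounded value inside each segment. Bmp5, under 0.12 FPKM, is not drawn. Gdf10 fills 50.4% and 48.4% of the ligand sum in the proximal libraries and 28.3% and 16.6% in the distal ones.

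Nbl1 (also called DAN) encodes a cystine knot antagonist of the DAN family, to which Grem1 also belongs. It lies on chromosome 4 at 139082284 to 139092993 (minus strand). Its level was 1751 FPKM in distal 2, 941 FPKM in distal 3, 1608 FPKM in proximal 2 and 733 FPKM in proximal 3. The regions overlapped, and the order followed the library number as for Bmp7. The log2 difference between regions was -0.24 ± 0.55 (SE; unadjusted p = 0.678, limma) with a 95% interval of -1.63 to 1.15. Number 2 alone gave -0.12 and number 3 alone -0.36. Leaving out 1 library makes region and number partly coincide. The difference was then 0.21 without distal replicate 2 and 0.33 without proximal replicate 3. Number 2 exceeded number 3 by 0.90 in distal and 1.13 in proximal stroma on the log2 scale. Higher values in both libraries numbered 2 than in both numbered 3 were common, at 50.3% of tested genes, and no label says what the number stands for. The 7 smooth muscle markers, of which 6 were tested and none was at 0, also summed higher in number 2 than in number 3. The sums were 313 FPKM in distal 2, 276 FPKM in proximal 2, 188 FPKM in distal 3 and 135 FPKM in proximal 3. Most of each sum came from Acta2, Tagln and Des. Cnn1 went the other way in proximal stroma, at 1.998 FPKM in proximal 2 and 3.10 FPKM in proximal 3. The split was not particular to smooth muscle. The summed level of stress genes induced by cell dissociation, given below, was likewise higher in both libraries numbered 2. That of the epithelial markers was higher in both numbered 3. The part of any of these lists in the levels of Nbl1 and Bmp7 was not tested.

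Bmper encodes a chordin-like protein that binds BMPs and can raise or lower their activity. It lies on chromosome 9 at 23223076 to 23485200 (plus strand). Its level was 2.55 FPKM in distal 2, 2.63 FPKM in distal 3, 3.91 FPKM in proximal 2 and 5.52 FPKM in proximal 3. The regions did not overlap, and the proximal mean was 1.82 times as high. The log2 difference was 0.66 ± 0.41 (SE), and its 95% interval of -0.40 to 1.71 included 0 (unadjusted p = 0.172, limma). The 6 pericyte markers, of which 4 were tested, 0 passed and none was at 0, summed to 21.02, 23.2, 34.9 and 42.2 FPKM in the same order of libraries. The order of this sum came from 1 gene, Vtn, at 1.52, 1.72, 21.9 and 27.2 FPKM. Abcc9, at 0.539, 1.17, 1.97 and 4.11 FPKM, was also higher in both proximal libraries. Cspg4 had the opposite order, at 15.1, 17.7, 7.25 and 7.73 FPKM. The part of these markers in the difference of Bmper was not tested.

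Chrdl1, another chordin-like antagonist, lies on chromosome X at 143285674 to 143394262 (minus strand). Its level was 5.37 and 4.62 FPKM in distal 2 and distal 3 and 5.71 and 5.56 FPKM in proximal 2 and proximal 3. The proximal values were above the distal ones by a small margin, with a log2 difference of 0.15 ± 0.40 (SE; 95% interval -0.86 to 1.15). Under quantile normalization the difference was -0.01. Of its 2 listed transcripts, the longer one (4190 bases) carried 46.0% and 61.4% of the level in distal 2 and distal 3 and 67.2% and 62.7% in proximal 2 and proximal 3. The division between overlapping transcripts is an estimate of the quantification, and the gene total does not rest on it.

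Grem1, an antagonist with high affinity for Bmp2 and Bmp4, lies on chromosome 2 at 113746164 to 113758646 (minus strand). It was listed at 0.0907 FPKM in distal 2, all from a short transcript of 555 bases, and at 0 in the other libraries. The deposited lower bound in distal 2 was 0, and Grem1 was not tested.

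Set against the ligands, the antagonists were the larger sum in every library, and 98.5% to 99.5% of that sum was Nbl1. The ratio of antagonist to ligand FPKM was 4.65 and 2.93 in distal 2 and distal 3 and 2.97 and 1.94 in proximal 2 and proximal 3, so the regions overlapped. Without Nbl1 the antagonists among the members summed to 8.01 and 7.25 FPKM in distal and 9.61 and 11.1 FPKM in proximal libraries. The member ligands exceeded them 34.6 to 56.7 times. This holds for the members only. The 17 other secreted antagonists and modulators summed to 584 and 544 FPKM in distal 2 and distal 3. In proximal 2 and proximal 3 they summed to 553 and 700 FPKM. Htra1 and Fstl1 had the highest means of the 17, at 146 and 140 FPKM. The median log2 difference was 0.148 for the 4 tested ligands and 0.148 for the 3 tested antagonists, against 0.094 for all tested genes. With 2 ligands higher and 2 lower in proximal stroma, the median of the ligands describes none of them.

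**Figure D3:**
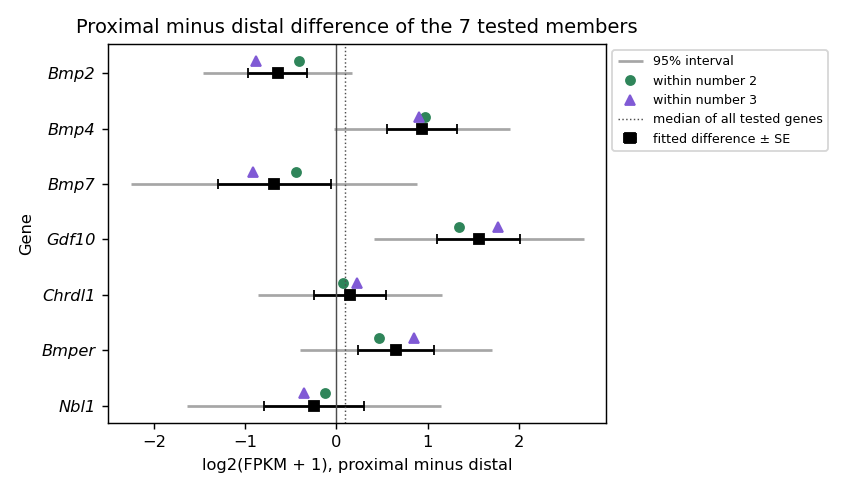
Proximal minus distal difference of log2(FPKM + 1) for the 7 tested genes. Squares with black bars give the fitted difference and its SE, grey lines the 95% interval, circles and triangles the difference within the libraries numbered 2 and 3, and the dotted line the median of all tested genes (0.09). The interval of Gdf10 (0.41 to 2.71) does not reach 0 and the other 6 do, and 0 genes passed after adjustment.

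**Figure D4:**
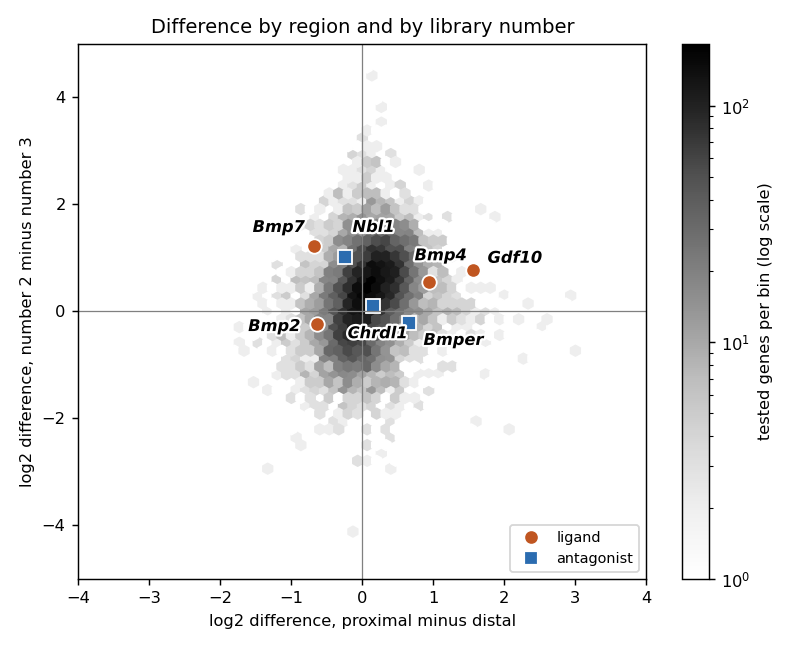
Each tested gene is placed by its log2 difference between regions (x axis) and between library numbers (y axis), with grey bins counting the 11212 tested genes on a log colour scale. Gdf10 and Bmp4 lie to the right at 1.56 and 0.94, Bmp2 to the left at -0.64, and Bmp7 and Nbl1 lie high on the y axis at 1.21 and 1.01.

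Stress genes induced by cell dissociation and epithelial markers were compared in the same way. All 10 dissociation stress genes had positive log2 differences (0 passed, median 0.79), against 60.3% of all tested genes. Both proximal libraries were above both distal ones for 5 of the 10, against 12.9%. The summed level of the 10 was 14429 FPKM in distal 2, 6882 FPKM in distal 3, 20304 FPKM in proximal 2 and 12722 FPKM in proximal 3. Within each number this sum was higher in the proximal library, as were Gdf10 and Bmp4. All 9 tested epithelial markers also had positive differences (0 passed, median 1.04), with the highest sum in proximal 3 (495 FPKM). Both proximal libraries were above both distal ones for 1 of the 9, Krt19, against 12.9%. Within number 2, Krt14, Krt18 and Cd24a were lower in the proximal library (log2 differences of -0.33, -0.35 and -0.23). Of the tested members, Bmper was highest in proximal 3, Gdf10, Bmp4 and Chrdl1 in proximal 2, and the others in a distal library. The part of either list in the differences of the BMP genes was not tested. In such bulk samples fewer cells of a type and less RNA per cell cannot be told apart.

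Among the other BMP family ligands, 2 of 11 were tested and 0 passed. Gdf7, a ligand known from the roof plate and from seminal vesicle development, was as abundant as some members, at 57.1 FPKM in distal 2, 20.0 FPKM in distal 3, 91.2 FPKM in proximal 2 and 29.6 FPKM in proximal 3. The regions overlapped (log2 difference 0.60 ± 0.73, SE). Bmp6 did not exceed 1.68 FPKM, and the other 9 stayed under 1 FPKM in every library.

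Of 17 other secreted antagonists and modulators, 10 were tested and 0 passed, with 5 differences above and 5 below 0 and a median of 0.08. Twisted gastrulation (Twsg1), which helps chordin bind BMPs, stood at 91.3 to 107 FPKM in the 4 libraries. Follistatin (Fst), which binds activins and some BMPs, was at 57.3 FPKM in distal 2, 65.2 FPKM in distal 3, 41.9 FPKM in proximal 2 and 234 FPKM in proximal 3, so that a single library stood apart. The classical antagonists noggin (Nog) and chordin (Chrd) ranged from 6.40 to 13.4 FPKM and from 8.69 to 19.1 FPKM, both highest in proximal 2, with log2 differences of 0.39 ± 0.45 and 0.47 ± 0.44 (SE). Sostdc1, which binds BMPs and Wnt co-receptors, had a difference of 0.67 ± 0.71 (SE). Noggin and chordin were thus both above Chrdl1, Bmper and Grem1 on the FPKM scale in every library.

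Of 12 receptors and co-receptors, 10 were tested and 0 passed, with a median of 0.12. The type I receptor Bmpr1a was at 14.1 to 17.9 FPKM and the type II receptor Bmpr2 at 2.68 to 4.23 FPKM, while Bmpr1b did not exceed 0.167 FPKM. The largest differences were 0.45 ± 0.35 for Acvrl1, 0.35 ± 0.36 for the decoy receptor Bambi and 0.28 ± 0.50 for the co-receptor Rgma (log2, SE). Acvrl1 stood at 11.8 FPKM in distal 2, 11.6 FPKM in distal 3, 15.2 FPKM in proximal 2 and 17.7 FPKM in proximal 3. It and Bambi were the 2 of 10 tested genes with higher values in both proximal libraries, against 12.9% of all tested genes. Of 7 proteases that process BMPs or chordin, 3 were tested and 0 passed, with differences of -0.55 ± 0.67 for Bmp1, a protease that cleaves chordin, -0.45 ± 0.33 for Pcsk5 and -0.06 ± 0.65 for Furin. Pcsk5 was the 1 of these 3 with lower values in both proximal libraries, against 8.67% of all tested genes.

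Downstream of the receptors, 7 of 8 Smad pathway genes were tested and 0 passed, with 6 of 7 differences below 0 and a median of -0.19. The inhibitory Smad6 was at 27.0 FPKM in distal 2, 10.1 FPKM in distal 3, 12.1 FPKM in proximal 2 and 6.59 FPKM in proximal 3. Its difference of -0.82 ± 0.59 (SE) was followed by -0.73 ± 0.77 for the ubiquitin ligase Smurf1 and -0.42 ± 0.75 for Smad7. Smad4 followed the library number, at 46.9 and 39.8 FPKM in number 2 and 4.80 and 4.84 FPKM in number 3.

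Of 14 BMP target genes, 12 were tested and 0 passed, with 8 differences above and 4 below 0 and a median of 0.26. The homeobox gene Msx1 had the largest difference, 1.02 ± 0.35 (SE; unadjusted p = 0.0330, limma), with 31.4 FPKM in distal 2, 32.6 FPKM in distal 3, 53.2 FPKM in proximal 2 and 81.5 FPKM in proximal 3. Both proximal libraries were above both distal ones for 4 of the 12 tested targets, against 12.9% of all tested genes. These were Msx1, Bambi, Atoh8 (2.86 and 1.51 FPKM in distal, 5.12 and 4.58 FPKM in proximal libraries) and Gata2 (58.5 and 44.1 FPKM, then 68.3 and 68.6 FPKM). Both lay below for 1 target, Runx2 (5.54 and 6.70 FPKM in distal, 4.98 and 2.33 FPKM in proximal libraries), against 8.67%. Id1, the most used readout of BMP signalling, was at 240 FPKM in distal 2, 54.4 FPKM in distal 3, 339 FPKM in proximal 2 and 113 FPKM in proximal 3, with both libraries numbered 2 above both numbered 3 (log2 difference between regions 0.77 ± 0.87, SE). Id3 stood at 607 to 1354 FPKM and Id2 at 318 to 722 FPKM, both with overlapping regions. Smad6 and Smad7, which are feedback targets as well as inhibitors, had differences below 0, as given above.

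**Figure D5:**
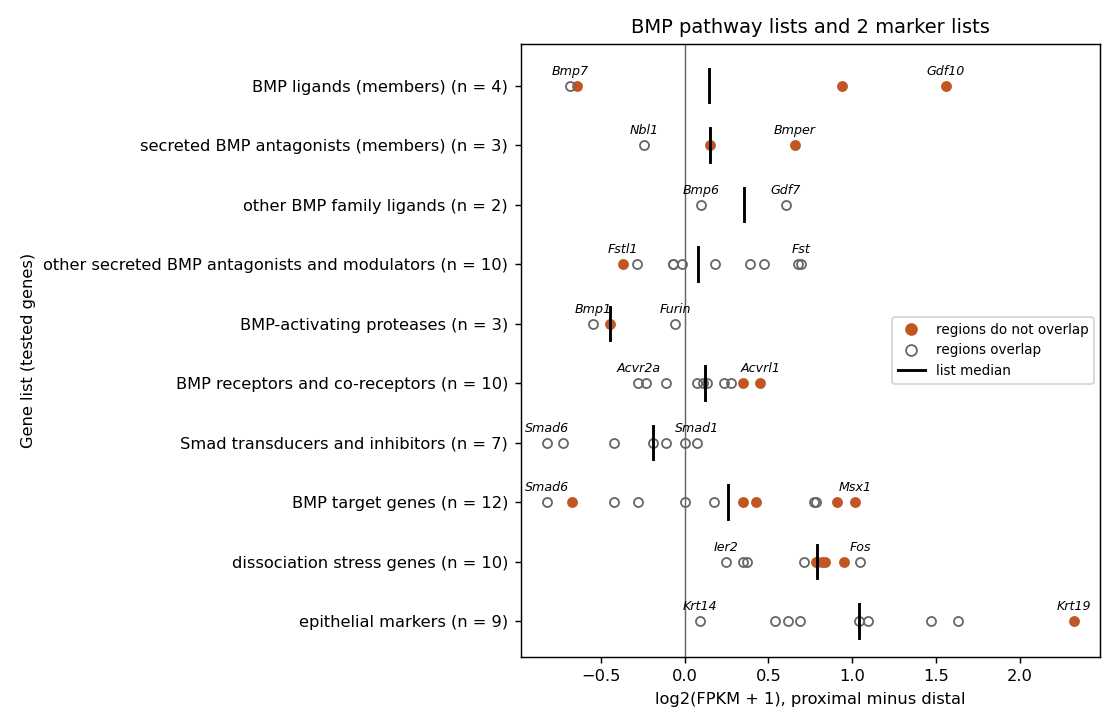
Each point is a tested gene, placed by its proximal minus distal difference of log2(FPKM + 1). Filled points are genes whose 2 regions do not overlap, open points overlap, and the black bar is the list median. The medians are 0.15 for both member lists, 0.26 for the targets, -0.19 for the Smad genes, 0.79 for the dissociation stress genes and 1.04 for the epithelial markers.

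For each tested member the 2 genes with the most similar profile over the 4 libraries were sought among 7387 other genes with a mean of at least 5 FPKM, by Euclidean distance between centred log2(FPKM + 1) values. Nearest to Gdf10 were Tpd52l1 (distance 0.21) and Rilpl2 (0.35), at lower levels of 5.93 to 28.0 FPKM and 3.57 to 16.0 FPKM. Nearest to Bmp4 were Paxx (0.08) and Bloc1s1 (0.12), and nearest to Bmp2 were Rbfox2 (0.08) and Zfp52 (0.12). Bmp7 was closest to Gnai1 (0.11) and Apobec3 (0.12), and Nbl1 to Gnaq (0.03) and Rbms3 (0.04). Bmper was closest to Itpk1 (0.09) and Cst3 (0.10), and Chrdl1 to Washc5 (0.03) and Kat5 (0.04). The nearest gene of Gdf10 was farther away than that of any other tested member, at 0.21 against 0.03 to 0.11. Profiles were centred but not scaled, so the distance also depends on the size of the differences. Between regions that of Gdf10 was the largest among the members. With 4 libraries many profiles are alike by number and region, and these names describe the profiles only.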

How the data were processed

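RNA of 4 sorted stromal samples was measured, 2 from proximal and 2 from distal ducts. Per the labels' protocols, cDNA was made with the SMART-Seq v4 kit from random and oligo-dT primers and built into libraries with the TruSeq DNA kit, steps that do not mark strand. The genome build was mm10 and the tools were TopHat2, Cufflinks and bcl2fastq 1.8.3, as listed without roles in the submitters' processing notes. Per the file headers, each deposited table holds transcript FPKM, its bounds and a coverage signal. FPKM is not a count, so no count model was used.

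The files name no genes. Transcripts were assigned by position to GENCODE M21, which uses the same assembly (54869 of 63241 transcripts, 96.0% to 96.3% of summed FPKM), and FPKM was summed per gene. Genes with a failed or capped estimate were left out. Genes with at least 1 FPKM in at least 2 libraries were tested as log2(FPKM + 1), which understates the change of low genes, with limma 3.58.1 in R 4.3.3 (region as the only term, mean trend, two-sided). Naming and plots used matplotlib 3.10.9, pandas 2.3.3 and numpy 2.4.6 in Python 3.11.15. The code of the fit was tested on simulated data with independent noise and no shift between library numbers. Such data cannot show how the fit performs on these libraries. Members and lists were chosen with earlier results of these data known. Named genes are the members, their 2 nearest profiles and, per list, the 3 with the largest difference. Other BMP ligands, antagonists, receptors and targets that reach 10 FPKM in any library may be named too. Bmpr2, Bmpr1b, Smad4, Cd3e, Ly6a and Runx2 were chosen after their values were seen. Alternatives changed the pseudocount, filter, scaling, trend, naming, transcript summing, replicate block and libraries.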

Additional observations from a re-analysis of the deposited data

How the results depend on the processing

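Of 83 values of single members under 12 alternatives, 77 kept their direction and their side of the threshold. The filter, trend and block alternatives cannot change a fitted difference, and the naming alternative left those of the kept members as they were. Their directions were thus fixed in advance. Under quantile normalization Chrdl1 turned to -0.012, while the all-gene median went from 0.09 to -0.03. Leaving out 1 library makes region and number partly coincide, and then Bmp7 ranged from -1.41 to 0.044 (without proximal replicate 3) and Nbl1 from -0.81 to 0.33 (0.21 without distal replicate 2, 0.33 without proximal replicate 3), while Gdf10 stayed between 1.07 and 2.05, Bmp4 between 0.65 and 1.23, Bmp2 between -0.88 and -0.41 and Bmper between 0.45 and 0.86. The median of the antagonists was -0.012 under quantile normalization, 0.045 under median ratio size factors, 0.35 with the most abundant transcript per gene and 0.059 to 0.33 over the fits without 1 library. The median of the ligands was -0.64 when only transcripts named by span and length were kept, which leaves out Gdf10, 0.024 under median ratio size factors and 0.0023 to 0.64 over the fits without 1 library. The count of called genes ranged from 0 to 40 with 1 library left out (40 without distal replicate 2, 26 without distal replicate 3), with 0 members called in each. In these fits 1 region is a single library, assumed to vary like the other region, so they say little about stability.

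With the replicate number as a block, 451 of 11212 tested genes and 2 of the 7 tested members were called. These members were Gdf10 (adjusted p = 0.0126, limma) and Bmp4 (adjusted p = 0.0371, limma), with unchanged differences of 1.56 and 0.94. Deviations from the region means of same-numbered libraries had a correlation of 0.815 across genes. Pearson r of the log2 values was 0.952 within number 2 and 0.952 within number 3, against 0.911 within distal and 0.869 within proximal stroma. The labels tie no number to an animal or a day, so what same-numbered libraries share is not known. The cause of the shifts under scaling was not tested. The files give no counts, so what depth limits cannot be stated, and Bmp5 and Grem1, under the minimum of 1 FPKM, were not compared.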
